A study of Mus musculus with 12 samples.

Results

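The comparison described here asks which transcripts differ when the co-activators YAP and TAZ are removed from endothelial cells that already lack the kinases LATS1 and LATS2. It sets 4 libraries with all 4 genes deleted, called L12YT-ECKO, against 4 libraries with the kinases deleted, called L12-ECKO. These are 8 of the 12 libraries of the series, and they were taken by genotype, without regard to any measured value. Of 24421 genes in each table, 24394 were named alike in all 12, 34 were left out because their rows are displaced in some libraries, and 11634 passed a filter on low values and were tested.

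The RNA came from lung endothelial cells of postnatal day 5 mice (C57BL/6J strain), isolated by flow cytometry. L12-ECKO mice carried VE-cadherin-CreERT2 with floxed Lats1 and floxed Lats2 alleles (Lats1 f/f, Lats2 f/f). L12YT-ECKO mice carried the same driver and the same kinase alleles, and floxed Yap and TAZ alleles (Yap f/f, TAZ f/f) besides. The deletion is thus conditional, by an inducible Cre recombinase expressed from an endothelial promoter, and both groups compared share the kinase deletion. The 4 wild-type libraries (WT) served to estimate the spread and are shown for their level; whether those mice carried Cre, and when any inducer was given, is not stated in the sources used here. The tissue label was checked against 26 pan-endothelial genes: the median of their log2 values was 11.60 to 12.03 in the L12-ECKO libraries and 11.73 to 12.18 in the L12YT-ECKO libraries, and no member was at 0 in any of these 8 libraries.

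In the Hippo pathway, LATS1 and LATS2 phosphorylate YAP and its relative TAZ, which is encoded by Wwtr1, and so keep them out of the nucleus. Unphosphorylated YAP and TAZ bind TEAD transcription factors and switch on genes for matricellular proteins, cytoskeletal regulators and growth factors. In growing vessels they are known to act in sprouting, in junction turnover and in vascular maturation.

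Expression is given in the authors' normalized log2 values, on which 1 unit means a doubling. A difference is L12YT-ECKO minus L12-ECKO, and a gene is said to have risen or fallen only where its limma p, after Benjamini-Hochberg adjustment across the 11634 genes, was under 0.05. The labels do not state that each library is a different animal, so these p-values measure the spread between libraries, which may be technical. The depth behind the values is unknown; 9804 to 13027 genes lay above 0, the fewest in L12-ECKO replicate 3. Across genes, which are no independent replicates, pairs of libraries correlated at 0.658 to 0.844 within the groups and at 0.619 to 0.837 between them. The medians were 0.73 within and 0.738 between, so libraries were no closer to their own group by this measure. No pair of libraries was identical. The 5 libraries with displaced rows (L12-ECKO replicates 2, 3 and 4, L12YT-ECKO replicates 3 and 4) were treated as a batch, so a difference within the other 7 libraries rests on L12-ECKO replicate 1 alone. By Xist and Ddx3y, the same 3 L12-ECKO libraries and L12YT-ECKO replicate 3 came from females. All WT libraries are among the 7 without displaced rows, so any comparison with WT levels is confounded in part with batch.

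The targeted genes were examined first. Wwtr1 (chromosome 3, 57455649 to 57575910, minus strand, protein coding) stood at 11.56, 11.56, 11.49 and 10.11 in L12-ECKO replicates 1 to 4 and at 8.16, 8.72, 9.01 and 9.37 in L12YT-ECKO replicates 1 to 4. The groups did not overlap, although L12-ECKO replicate 4 lay well under the other libraries of its group. Wwtr1 fell by 2.37 (SE 0.35, limma adjusted p = 0.00522), from 11.18 ± 0.71 to 8.81 ± 0.51 (SD, n = 4 each). Yap1 (chromosome 9, 7931999 to 8004596, minus strand, protein coding) stood at 10.37, 9.71, 10.45 and 9.35 in L12-ECKO and at 7.96, 8.01, 6.69 and 8.20 in L12YT-ECKO. All 4 L12YT-ECKO libraries were again below all 4 L12-ECKO libraries. Yap1 fell by 2.25 (SE 0.406, limma adjusted p = 0.0388). The libraries with YAP and TAZ deleted thus held the lowest values of both genes, with transcript still measured in each.

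The kinase genes are deleted in both groups. Lats2 stood at 9.72, 9.71, 10.33 and 9.97 in L12-ECKO and at 8.70, 8.63, 8.99 and 9.57 in L12YT-ECKO, and the groups did not overlap. Its difference of -0.96 did not pass (SE 0.363, limma adjusted p = 0.686). Lats1 was scattered, at 7.40, 1.28, 0 and 5.78 against 7.90, 0, 7.11 and 7.53, and showed no order between the groups. The libraries read a stretch near the 3-prime end of transcripts and which exons the deletion takes is not stated in the sources used here, so the Lats1 and Lats2 values check nothing about the deletion.

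In all, 8 of 11634 genes were called, which is 0.0688% of those tested. 7 fell (0.0602%) and 1 rose (0.0086%). Besides Wwtr1 and Yap1 the genes that fell were Cyr61, Ctgf, Apln, Fam101b and Crim1, and the gene that rose was Cldn5. At an unadjusted p under 0.05 there were 707 genes, with 463 on the higher side (3.98% of those tested) and 244 on the lower side (2.1%). The libraries of the 2 groups did not overlap in 320 genes on the higher side (2.75%) and in 189 on the lower side (1.62%), which include all 8 called genes. The median difference over all genes tested was 0.09, and 55.0% of them were higher in L12YT-ECKO.

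**Figure D1:**
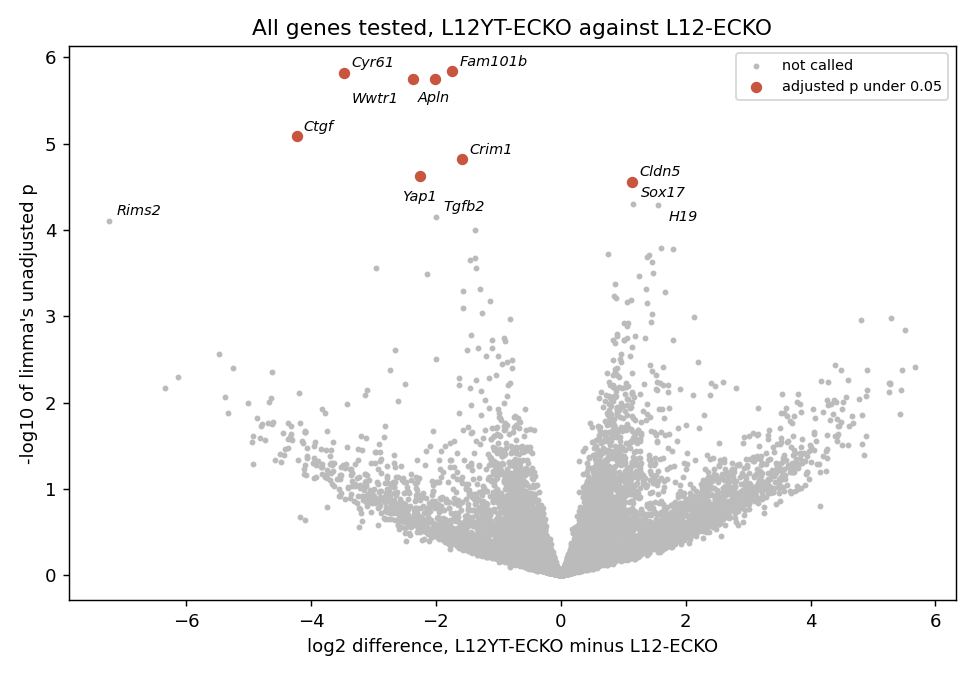
Each point is 1 of the 11634 genes tested: the horizontal axis is the log2 difference, L12YT-ECKO minus L12-ECKO, and the vertical axis is the negative log10 of limma's unadjusted p. The 8 called genes are red, 7 on the left and Cldn5 on the right, and the wide lower flanks are genes of low level.

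Among the called genes Ctgf and Cyr61 fell the most. Both encode secreted matricellular proteins of the CCN family, which bind integrins and growth factors in the matrix, and both are widely used readouts of YAP and TAZ activity. Ctgf (annotated as Ccn2, chromosome 10, 24595442 to 24598683, plus strand) stood at 14.44, 12.71, 13.33 and 14.74 in L12-ECKO and at 9.48, 8.70, 10.16 and 9.96 in L12YT-ECKO. The gap between the groups exceeded the range within either, and the WT range of 5.84 to 9.08 overlapped that of L12YT-ECKO. Ctgf fell by 4.23 (SE 0.617, limma adjusted p = 0.019), an 18.7-fold difference. Cyr61 (annotated as Ccn1, chromosome 3, 145646976 to 145649981, minus strand) stood at 13.13, 11.14, 11.22 and 12.71 in L12-ECKO and at 7.59, 8.32, 9.51 and 8.88 in L12YT-ECKO. The groups did not overlap, and the WT range of 7.14 to 8.62 overlapped that of L12YT-ECKO. Cyr61 fell by 3.47 (SE 0.507, limma adjusted p = 0.00522), an 11.1-fold difference. Another tested member of the family, Wisp1, lay near the floor, at 0, 5.68, 8.02 and 3.20 against 0, 2.00, 0.89 and 4.89, with a difference of -2.28 that did not pass. The family's other 3 members did not pass the filter on low values.

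Both CCN genes were lower within each batch: Ctgf differed by -5.35 in the batch of 7 and by -3.53 in the batch of 5, and Cyr61 by -5.18 and -2.49. Without L12-ECKO replicate 1 the differences were -4.02 and -3.11. Cyr61 was called in each of the 12 fits that leave out 1 library (limma adjusted p 0.00818 to 0.0453). Ctgf lost its call in 4 of them, with a limma adjusted p of 0.0657 without WT replicate 2, 0.0522 without L12-ECKO replicate 1, 0.0806 without L12YT-ECKO replicate 1 and 0.0952 without L12YT-ECKO replicate 2. Ctgf also missed the threshold with batch (limma adjusted p = 0.0548) or sex (limma adjusted p = 0.0816) as a covariate.

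3 other genes fell that were not deleted. Apln (chromosome X, 48025146 to 48034853, minus strand) encodes apelin, a peptide secreted by sprouting endothelial cells that signals through the receptor Aplnr. It stood at 13.37, 13.12, 13.27 and 12.55 in L12-ECKO and at 10.80, 10.96, 11.05 and 11.48 in L12YT-ECKO. The groups were separated by more than 1 log2 unit. Apln fell by 2.01 (SE 0.296, limma adjusted p = 0.00522), while Aplnr, at a difference of 0.62 in the other direction, did not pass (SE 0.295, limma adjusted p = 0.811).

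Fam101b, now named Rflnb (chromosome 11, 76019194 to 76027782, minus strand), encodes refilin B, a regulator of the actin network. It stood at 13.17, 12.43, 12.73 and 12.36 in L12-ECKO and at 11.03, 10.80, 11.14 and 10.77 in L12YT-ECKO. Its L12YT-ECKO mean of 10.94 ± 0.18 lay beside the WT mean of 10.91 ± 0.25 (SD, n = 4 each). Fam101b fell by 1.74 (SE 0.253, limma adjusted p = 0.00522). Crim1 (chromosome 17, 78200248 to 78376592, plus strand) encodes a transmembrane protein with cysteine-rich repeats that binds BMPs and related growth factors. It stood at 12.50, 11.81, 11.91 and 12.07 in L12-ECKO and at 10.95, 10.30, 10.38 and 10.36 in L12YT-ECKO. The groups did not overlap, and L12YT-ECKO replicate 1 lay above the other libraries of its group. Crim1 fell by 1.58 (SE 0.274, limma adjusted p = 0.0291).

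Apln and Fam101b, like Cyr61 and Wwtr1, were called without each of the 12 libraries in turn; the limma adjusted p ran from 0.00596 to 0.0396 for each of Apln and Fam101b and from 0.000681 to 0.0396 for Wwtr1. Crim1 was called in 4 of those fits, without WT replicates 1, 3 or 4 or L12YT-ECKO replicate 1, and its highest limma adjusted p was 0.122, without L12-ECKO replicate 1. Yap1 was called in 3, without WT replicate 4, L12-ECKO replicate 4 or L12YT-ECKO replicate 4, and its highest limma adjusted p was 0.144, without L12-ECKO replicate 1. With sex as a covariate Crim1 missed the threshold (limma adjusted p = 0.0792), while Yap1 kept its call (limma adjusted p = 0.0405). Both lost their call when the 8 libraries were fitted without WT (limma adjusted p = 0.117 for Yap1 and 0.0567 for Crim1). The same held with the replicate number as a block (limma adjusted p = 0.0917 and 0.0702). The sizes moved less than the calls: without L12-ECKO replicate 1 Apln differed by -1.91, Fam101b by -1.57, Crim1 by -1.43, Yap1 by -2.12 and Wwtr1 by -2.24. Within the batches of 7 and of 5 the differences were -2.49 and -1.72 for Apln, -2.26 and -1.55 for Fam101b, and -1.88 and -1.56 for Crim1. For Wwtr1 they were -3.13 and -1.86, and for Yap1 -2.39 and -2.39.

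Cldn5 (chromosome 16, 18776847 to 18778262, plus strand) encodes claudin-5, the main claudin of endothelial tight junctions. It stood at 13.45, 14.33, 13.51 and 13.30 in L12-ECKO and at 14.79, 14.63, 14.79 and 14.93 in L12YT-ECKO. L12-ECKO replicate 2 came within 0.5 of the lowest L12YT-ECKO library, and the other L12-ECKO libraries lay more than 1 below it. Cldn5 rose by 1.14 (SE 0.208, limma adjusted p = 0.0401), and the WT values of 14.11 to 14.56 lay between the means of the 2 groups. This call was the least stable: it held in 1 of the 12 leave-one-out fits, that without L12-ECKO replicate 2 (limma adjusted p = 0.00805), and the limma adjusted p of the other 11 ran up to 0.16. The difference was 1.27 and 1.15 within the batches of 7 and of 5, and 1.07 without L12-ECKO replicate 1. With sex as a covariate Cldn5 also missed the threshold (limma adjusted p = 0.0572).

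**Figure D2:**
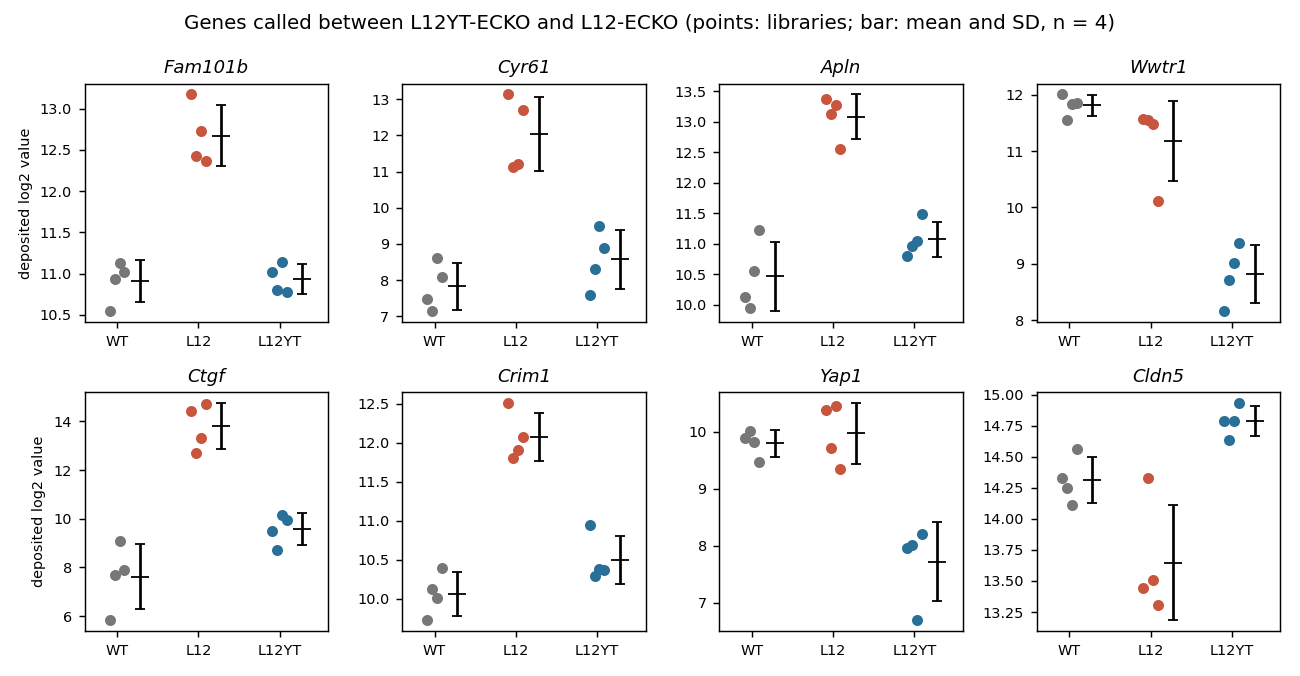
The deposited log2 value of the 8 called genes in each library, with bars for the mean and SD (n = 4) of WT, L12-ECKO and L12YT-ECKO. In every panel the L12-ECKO and L12YT-ECKO points do not overlap; Cyr61, Ctgf, Apln, Fam101b and Crim1 are high in L12-ECKO alone, whereas Wwtr1 and Yap1 are low in L12YT-ECKO alone.

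The sequences before the start of the called genes are shown because TEAD factors, through which YAP and TAZ bind DNA, recognise a short core, GGAATG, which reads CATTCC on the other strand. Windows of 250 bases before the transcription start were taken from RefSeq (GRCm38.p6) and searched for these 6 letters on both strands. Of the 8 called genes 7 had a window, and 4 of those held the core: Wwtr1, Yap1, Cyr61 and Crim1. Wwtr1 and Yap1 are the deleted genes themselves, so their fall says nothing of TEAD sites. Among the other called genes with a window, Cyr61 and Crim1 held the core, and Apln, Fam101b and Cldn5 did not. Whether this share differs from that of all windows was not tested. The core occurs in 12.6% of all 32851 windows of that length, and in 14.4% of 27025 genes. Of the 20 named genes nearest to the threshold, described below, 3 of 8 lower ones with a window held it (Cd200, Edn1 and Slc25a25), and 0 of 6 higher ones. Each window below is written 5-prime to 3-prime on the strand of its gene, with the core in capitals. They run over chr3:145649986-145650235 (minus strand) for Cyr61, chr17:78199998-78200247 (plus) for Crim1, chrX:48034854-48035103 (minus) for Apln, chr11:76027783-76028032 (minus) for Fam101b and chr16:18776597-18776846 (plus) for Cldn5.
Cyr61: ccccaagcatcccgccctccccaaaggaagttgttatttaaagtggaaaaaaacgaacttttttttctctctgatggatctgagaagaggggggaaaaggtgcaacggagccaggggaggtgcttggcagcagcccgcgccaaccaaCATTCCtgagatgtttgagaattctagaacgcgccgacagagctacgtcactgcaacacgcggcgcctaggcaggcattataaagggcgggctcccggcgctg
Crim1: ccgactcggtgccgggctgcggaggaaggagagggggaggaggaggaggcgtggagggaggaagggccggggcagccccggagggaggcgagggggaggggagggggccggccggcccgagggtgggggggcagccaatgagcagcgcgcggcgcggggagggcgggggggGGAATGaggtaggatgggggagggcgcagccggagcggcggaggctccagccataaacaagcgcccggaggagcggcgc
Apln: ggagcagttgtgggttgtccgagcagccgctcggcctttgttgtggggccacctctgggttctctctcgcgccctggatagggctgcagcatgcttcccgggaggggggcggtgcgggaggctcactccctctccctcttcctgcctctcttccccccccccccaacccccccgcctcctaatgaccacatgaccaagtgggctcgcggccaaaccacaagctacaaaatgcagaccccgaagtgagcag
Fam101b: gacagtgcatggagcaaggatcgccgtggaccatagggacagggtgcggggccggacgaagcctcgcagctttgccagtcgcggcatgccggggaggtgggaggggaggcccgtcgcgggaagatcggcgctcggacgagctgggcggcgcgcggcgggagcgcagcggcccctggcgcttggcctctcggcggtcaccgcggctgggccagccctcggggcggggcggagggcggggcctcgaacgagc
Cldn5: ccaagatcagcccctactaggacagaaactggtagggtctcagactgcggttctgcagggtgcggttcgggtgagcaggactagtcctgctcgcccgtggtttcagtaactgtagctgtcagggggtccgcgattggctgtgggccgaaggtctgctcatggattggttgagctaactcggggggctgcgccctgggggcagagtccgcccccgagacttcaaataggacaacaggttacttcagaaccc
In Cyr61 the core begins 103 bases before the start and reads CATTCC, and in Crim1 it begins 79 bases before the start and reads GGAATG. The windows of Apln, Fam101b and Cldn5 do not hold these letters, which says nothing of sites elsewhere.

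Below the threshold, the 10 higher and 10 lower genes with the smallest p were taken among those with a mean of at least 8 over the 8 libraries and no overlap between the groups. As they were chosen for that, their separation is a description. Among the higher ones, Sox17, an endothelial transcription factor gene of arterial identity, stood at 12.54, 11.83, 11.89 and 12.33 in L12-ECKO and at 13.05, 13.11, 13.48 and 13.59 in L12YT-ECKO. Its difference of 1.16 just missed the threshold (SE 0.224, limma adjusted p = 0.0597), and its L12YT-ECKO mean equalled that of WT to the first decimal, 13.31 and 13.30. H19, an imprinted noncoding RNA of growing tissues, stood at 11.85, 11.32, 11.58 and 10.70 against 13.24, 13.25, 12.84 and 12.36. It differed by 1.56 (SE 0.301, limma adjusted p = 0.0597). Both were called without L12-ECKO replicate 1 (limma adjusted p = 0.0449 and 0.0499). Of the 12 leave-one-out fits, however, Sox17 passed in 1 and H19 in 3, with limma adjusted p up to 0.217 and 0.269. Over all 28 other settings they passed in 4 and 6. With sex as a covariate neither passed (limma adjusted p = 0.241 and 0.291). The size for Sox17 was uneven, at 0.55 among the 7 libraries without displaced rows and 1.52 among the 5 with them. For H19 it was 1.40 in both.

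The other higher genes were as follows. Cd93, a C-type lectin receptor of endothelium, differed by 0.75 and was the most even, at 13.74 to 13.88 in L12-ECKO and 14.44 to 14.79 in L12YT-ECKO. Gja4, which encodes the arterial gap junction protein connexin 37, differed by 1.38, the calcium pump gene Atp2a3 by 1.41 and the chloride channel family gene Clic5 by 1.47. The water channel gene Aqp1 differed by 1.25, with L12YT-ECKO replicates 1 and 2 at 15.74 and replicates 3 and 4 at 14.63 and 14.47, so the 2 batches stood apart. The group was completed by Stmn2, a microtubule regulator gene (1.61), Farsb, a tRNA synthetase subunit gene (1.80), and the sialyltransferase gene St6galnac4 (1.46). The limma adjusted p of these 8 genes was 0.127 to 0.151.

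Among the lower genes, Tgfb2, a ligand of the TGF-beta pathway, stood at 10.36, 10.34, 9.74 and 10.84 in L12-ECKO and at 7.64, 8.65, 8.09 and 8.92 in L12YT-ECKO. Its difference was -1.997 (SE 0.395, limma adjusted p = 0.0738). Bgn, which encodes the matrix proteoglycan biglycan, stood at 12.44, 12.34, 12.47 and 12.92 against 11.72, 10.49, 11.63 and 10.85, and differed by -1.37 (SE 0.281, limma adjusted p = 0.0906). Edn1, the gene of the vasoconstrictor endothelin-1, stood at 13.02, 12.04, 11.57 and 12.73 against 11.21, 10.46, 10.69 and 11.16, and differed by -1.46 (SE 0.322, limma adjusted p = 0.13). The L12YT-ECKO means of Tgfb2, Bgn and Edn1 were 8.32, 11.17 and 10.88, beside WT means of 8.36, 11.12 and 10.71.

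Further lower genes were Cd200, a surface ligand that restrains myeloid cells (-1.37), Lyve1, a hyaluronan receptor of lymphatic and some immature vessels (-1.29), and the mitochondrial carrier gene Slc25a25 (-2.14). Filip1l (-1.13), D17H6S56E-5 (-1.26) and the ribosomal protein gene Rps3a1 (-1.36) were also among them; Rps3a1 has near-identical copies, and how reads of such copies were assigned is not stated here. The limma adjusted p of these 6 genes was 0.129 to 0.27. Cd200 was called with batch as a covariate (limma adjusted p = 0.0346). All 20 genes had the same sign within both batches.

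**Figure D3:**
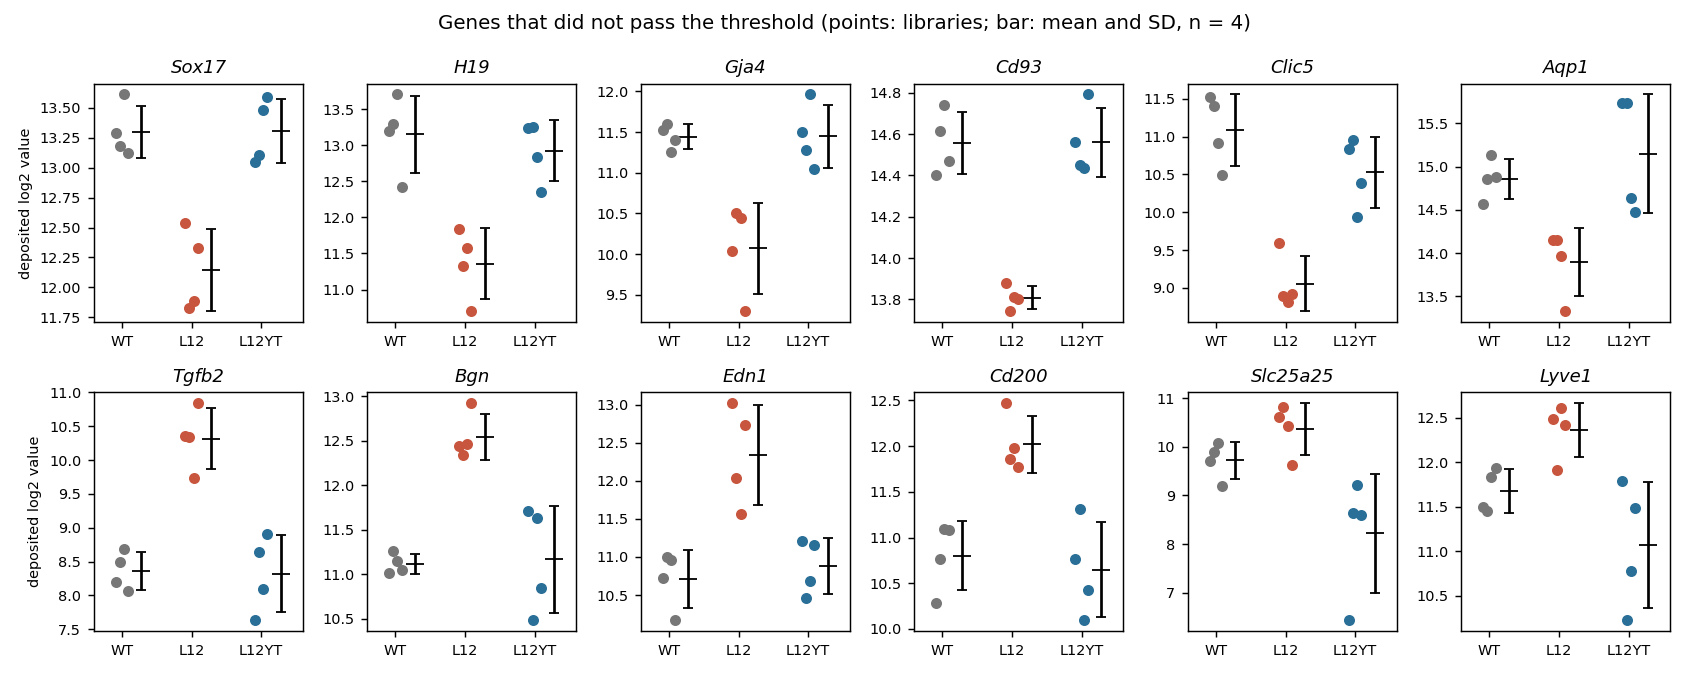
The deposited log2 value of 6 higher genes (upper panels) and 6 lower genes (lower panels) that did not pass the threshold, in each library of WT, L12-ECKO (L12) and L12YT-ECKO (L12YT), with bars for the mean and SD (n = 4). The genes were chosen for groups that do not overlap, and Cd93 shows the narrowest spread in L12-ECKO, 13.74 to 13.88.

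1 gene outside that rule, chosen after its values were seen, is Rims2 (chromosome 15, 39198261 to 39684372, plus strand), known as a scaffold gene of synaptic vesicle release. It was listed at 7.59, 7.41, 8.59 and 6.17 in L12-ECKO, at 0, 0, 0 and 0.86 in L12YT-ECKO and at 0 in all 4 WT libraries. It had the largest fitted difference of all genes tested, -7.23 (SE 1.45, limma adjusted p = 0.0759). Rims2 passed the filter on low values only through the 4 L12-ECKO libraries, where it is high. Its separation and the calls that follow are therefore a description and no support. Rims2 was called in 4 alternative fits: without a trend in the variance prior, without a filter on low values, with a floor of 32 added to the linear values, and with array weights. The L12-ECKO value was not carried by a single library: without replicate 1 it differed by -7.18.

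The gene groups are given next by role, each from a list drawn up with earlier results of these data known. The counts in these lists, also where set beside the share of all genes, are therefore a description and no support. Counts at an unadjusted p under 0.05, called the nominal level, are to be read against 3.98% of all genes tested on the higher side and 2.1% on the lower side. Among the listed YAP and TAZ targets outside the CCN family, 25 of 30 passed the filter and 2 fell (Fam101b and Crim1, against 0.0602% of all genes). 9 were lower at an unadjusted p under 0.05 and 0 were higher. 23 were lower and 2 higher, with a median difference of -0.96 beside 0.09 over all genes. The 9 include Lats2, itself deleted in both groups, whose difference of -0.96 is also the median. Tead1 and Amotl2, also among the 9, are counted again in the Hippo list below. The median was -1.06 within the batch of 7, -0.99 within the batch of 5 and -1.03 without L12-ECKO replicate 1. Igfbp3, a binding protein gene for insulin-like growth factors, differed by -2.65, of which L12-ECKO replicate 1 at 12.35 made a share: the difference was -1.93 without it. The target Ankrd1 lay near the floor in both groups, at 0 to 6.49 and 1.28 to 3.99, and differed by -0.10.

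Within the Hippo pathway itself, 23 of 25 listed genes were tested. 2 were called lower, the deleted Yap1 and Wwtr1, and the median difference was -0.01. At an unadjusted p under 0.05, 5 were lower and 1 higher. The factor gene Tead1 stood at 10.82, 9.67, 11.42 and 10.67 against 9.34, 9.82, 9.10 and 8.35, and differed by -1.49 (SE 0.428, limma adjusted p = 0.419). Its groups overlapped by L12-ECKO replicate 2. Amotl2, which encodes an angiomotin that binds YAP at junctions and is itself a target gene, differed by -1.28 (SE 0.472, limma adjusted p = 0.66).

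Among 22 apelin and tip cell genes, which mark the leading cells of vascular sprouts, 1 fell (Apln) and 0 rose. At an unadjusted p under 0.05, 5 were lower and 3 higher, and the median was -0.09, so the list did not move as one. The adhesion gene Mcam, another of its lower members, differed by -0.90 (SE 0.249, limma adjusted p = 0.365). Unc5b, a netrin receptor gene of the same list, differed by 0.97, the other way.

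The arterial list had 12 tested members, 0 of them called, 6 higher and 0 lower at the nominal level, and a median of 0.87. That median was 0.31 within the batch of 7 and 1.12 within the batch of 5. Besides Sox17 and Gja4 the 4 members with the smallest p held Unc5b and the ephrin gene Efnb2. Efnb2, a boundary signal of arteries towards veins, stood at 9.78, 9.26, 8.996 and 9.17 in L12-ECKO and at 10.16, 10.15, 10.10 and 10.73 in L12YT-ECKO, a difference of 0.98 that did not pass (SE 0.324, limma adjusted p = 0.574).

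Markers of 2 lung capillary types were counted. Of 14 markers of aerocytes, the large capillary cells that face the airspace, 7 were higher and 2 lower at the nominal level. The median was 0.93, and 0.57 without L12-ECKO replicate 1. Counted at any p, 8 of the 14 were higher and 6 lower (57.1% higher), a share near the 55% of all genes tested. Apln itself belongs to this list and was its 1 called member. Of the others, the periaxin gene Prx differed by 1.39 (9.95 to 11.41 in L12-ECKO, 11.55 to 12.48 in L12YT-ECKO) and the endothelin receptor gene Ednrb by 1.44 (8.78 to 10.63 and 10.66 to 11.97). Neither passed (limma adjusted p = 0.224 and 0.295). Of 13 general capillary markers 5 were higher and 0 lower at the nominal level, with a median of -0.01 and 0 called. Counted at any p, 6 of the 13 were higher and 7 lower (46.2% higher, against 55% of all genes tested), so the list did not move as one. Cd93 had the smallest p, followed by the fatty acid transporter gene Cd36 (0.74), the angiopoietin receptor gene Tek (0.60) and the semaphorin gene Sema3c (0.80). These are bulk samples, in which fewer cells of a type and less RNA per cell cannot be told apart.

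Among junction and barrier genes Cldn5 was the 1 called. Of 24 tested members 1 rose (against 0.0086% of all genes), 15 were higher and 9 lower, and the median of 0.09 equalled that of all genes. Gja4 and the receptor component gene Ramp2, which differed by 0.51, were the further members at an unadjusted p under 0.05. The adherens junction gene Cdh5 differed by 0.03.

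Genes of CDC42, a small GTPase of cell polarity and filopodia, and of its effectors were mostly on the higher side: 20 of 26 were higher, 5 higher and 0 lower at the nominal level, with a median of 0.29 and 0 called. Within the batch of 7 the median was -0.02, and within the batch of 5 it was 0.38. The kinase gene Pak4 stood at 7.21, 8.22, 6.27 and 6.81 in L12-ECKO and at 8.76, 8.63, 9.53 and 8.78 in L12YT-ECKO and differed by 1.80 (SE 0.499, limma adjusted p = 0.365). Rhoj, an endothelial relative of CDC42, differed by 0.80, Git1 by 0.91 and Iqgap1 by 0.63. Of 29 genes of the actin cytoskeleton and focal adhesions, 1 was higher and 4 lower at that level, with a median of 0.05. The lower ones included the actinin genes Actn4 (-0.65) and Actn1 (-0.79) and Diap1 (-0.72), a formin gene.

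Vasoactive genes split by member rather than moving as one. Of 17 tested, 5 members lay on the higher and 3 on the lower side at an unadjusted p under 0.05, with 0 called and a median of 0.31. Edn1 was lower while Ednrb was higher, as given above. The adrenomedullin receptor component gene Ramp3 differed by 1.15 and Thbd, the gene of the anticoagulant thrombomodulin, by 0.74. Among 20 KLF and ETS factor genes 4 were higher and 1 lower at that level, and 0 were called. Klf4, a flow-responsive factor gene, stood at 12.19, 12.74, 12.54 and 11.50 against 13.54, 12.92, 13.08 and 13.24 and differed by 0.95 (SE 0.282, limma adjusted p = 0.487), with no overlap. Ets2 differed by 1.01, Klf6 by -0.86 and Foxf1 by 0.78.

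In 5 signalling and matrix lists 0 members were called, and the counts at the nominal level were as follows. For Notch it was 3 of 15 higher, among them Hey1 (0.94) and Dll4 (0.91), for BMP and SMAD signalling 4 of 17 higher, among them Bmp2 (2.29) and Id1 (0.63), and for TGF-beta signalling 1 of 16 higher (Ltbp4, 1.13) and 2 lower, among them Tgfb2. Of 18 semaphorin and plexin genes 5 were higher and 2 lower, with Plxna2 at -1.56, Nrp2 at -0.86 and Sema3c at 0.80. Of 27 extracellular matrix genes 5 were higher and 2 lower; Col18a1 differed by 1.43, Timp3 by 0.90 and Fn1, the fibronectin gene, by -0.73. Medians of these 5 lists lay between -0.03 and 0.37.

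The proliferation and stress lists showed 0 calls. Of 32 DNA replication genes 0 were past an unadjusted p under 0.05 in either direction, with a median of -0.22, and of 28 mitosis genes 1 was lower, Cenpa at -0.66, with a median of -0.19. Of 18 type I interferon response genes 1 was higher, Irf9 at 0.87, with a median of 0.24, and of 16 p53 target and apoptosis genes 1 was higher, Phlda3 at 0.90, with a median of -0.05. The medians of the same 2 lists against WT, in comparisons that share these libraries, were 1.61 in L12-ECKO and 2.05 in L12YT-ECKO for interferon genes, and 1.06 and 1.11 for p53 genes. By the same measure the targets outside the CCN family stood at 1.21 and 0.21. No WT library has displaced rows, so all these medians against WT are confounded in part with batch.

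**Figure D4:**
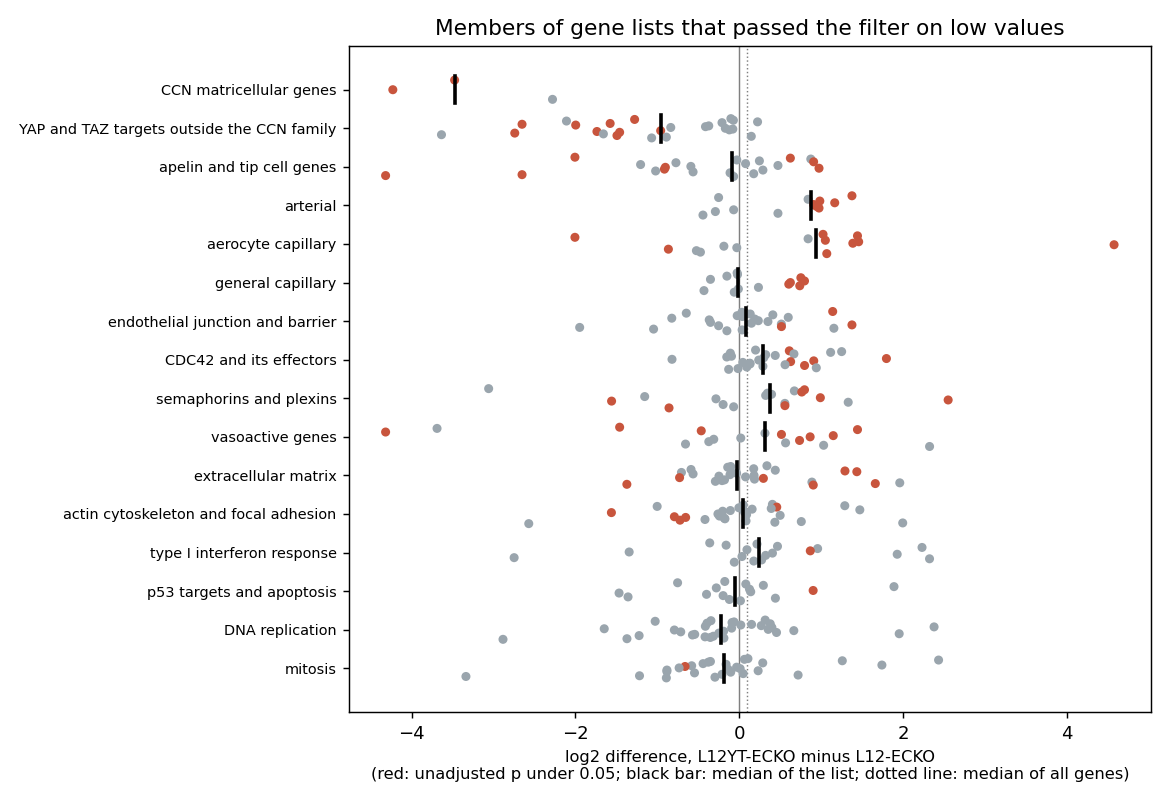
Each point is a tested member of a gene list, at its log2 difference, L12YT-ECKO minus L12-ECKO; red points have an unadjusted p under 0.05, the black bar is the median of the list and the dotted line the median of all genes tested. The CCN genes and the other YAP and TAZ targets lie mostly left of 0, the arterial and aerocyte medians (0.87 and 0.93) lie to the right, and most other medians lie near 0.

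Because L12-ECKO replicate 1 is the only library of its group without displaced rows, the only one from a male, and rich in neutrophil transcripts, each difference was recomputed without it. A difference of at least 1 was counted as carried by a library if under 0.5 of its size remained without that library. Of 11634 genes tested 1290 (11.1%) had a difference of at least 2 and 3392 (29.2%) one of at least 1, and 261 of the 3392 (7.69%) were carried by L12-ECKO replicate 1, 171 higher and 90 lower in L12YT-ECKO. 0 of the 8 called genes and 3 of the 707 genes at an unadjusted p under 0.05 were among the 261. The 3 sets carried by L12-ECKO replicates 2, 3 and 4 held 289, 846 and 172 genes, and those carried by L12YT-ECKO replicates 1 to 4 held 419, 256, 119 and 150. L12-ECKO replicate 3 thus carried the most differences: 703 of its 846 were higher in L12YT-ECKO, and 680 (80.4%) concerned genes listed at 0 in that library, where 19.6% of all genes tested stand at 0. Of 324 genes with a difference of at least 1 and a mean of at least 8, L12-ECKO replicate 1 carried 10 and replicate 3 carried 42.

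**Figure D5:**
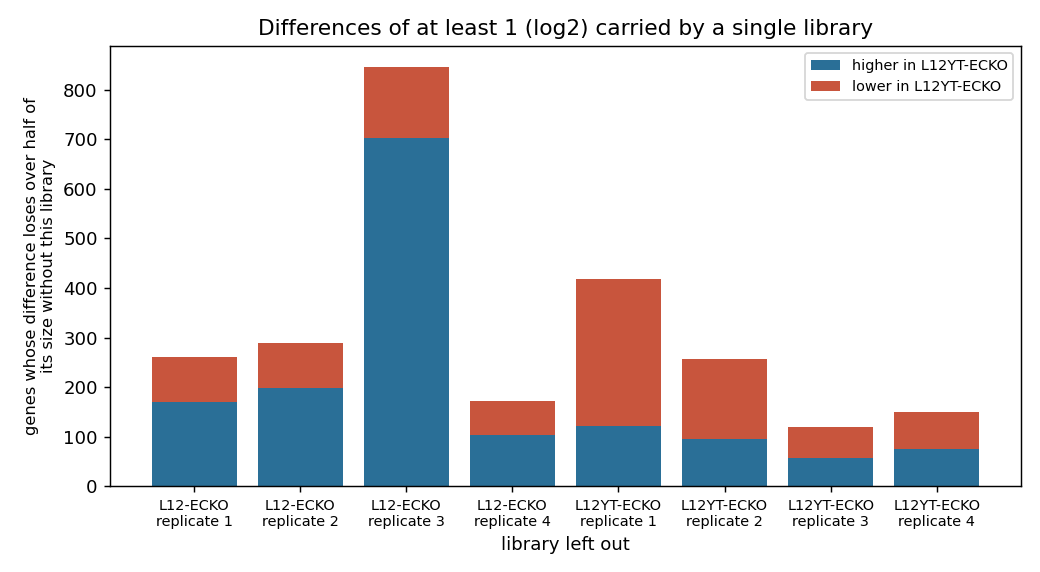
Number of genes with a difference of at least 1 whose difference loses over 0.5 of its size when the library on the horizontal axis is left out, split by direction. L12-ECKO replicate 1 carries 261 such differences, close to replicate 2 with 289, and replicate 3 carries the most with 846.

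The genes with the largest differences carried by L12-ECKO replicate 1 are given by name. Cd52, a lymphocyte and granulocyte surface gene, stood at 9.23, 4.24, 0 and 0 in L12-ECKO and at 0, 0, 0.31 and 1.63 in L12YT-ECKO. Its difference of -2.88 became -0.93 without replicate 1. The interleukin-1 antagonist gene Il1rn stood at 12.36, 0, 0 and 4.94 against 0, 6.18, 0 and 1.49, and its difference turned from -2.41 to 0.27. Ifitm1 went from -2.60 to -0.59, the lactate transporter gene Slc16a3 from -2.49 to -0.90, Ly9 from -2.44 to -0.98, Scgb3a1 from -2.82 to -0.99 and Cyfip2 from -2.77 to -1.29. On the higher side Sox6 went from 2.45 to 0.77, D3Ertd751e from 2.48 to 1.17 and Rad51c from 2.48 to 1.21. 0 of these 10 were called. Among the lists, neutrophil markers had 3 such members (Cxcr2, Ngp and Camp), immune markers 2 (Csf1r and Laptm5) and VEGF and angiopoietin genes 2 (Pgf and Angpt2); the YAP and TAZ targets had 1, Thbs1, and the CCN genes 0.

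Some list medians depend on that library as well. The median of 13 NF-kB and endothelial inflammation genes was -0.39 with all libraries and 0.21 without L12-ECKO replicate 1, and it stayed negative without any 1 of the other 7. The same held for 9 immune markers (-0.75 and 0.41) and 6 neutrophil markers (-1.67 and 0.35). 0 members of the 3 lists were called. The neutrophil sum was 16.50 in L12-ECKO replicate 1, 6.88 to 8.17 in the other L12-ECKO libraries and 3.98 to 9.98 in L12YT-ECKO, and of its 13 genes Elane and Mpo were at 0 in both groups. The alarmin gene S100a8 stood at 15.20 and S100a9 at 15.56 in that library, against at most 7.71 in the others of its group. Their differences of -0.36 and 0.13 became 2.66 and 3.38 without it, so for these genes the difference was larger without replicate 1. The part of neutrophil transcripts in these values was not tested.

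Liver transcripts went with the batch. The sum of 16 liver markers was 9.99 to 12.42 in the 3 L12-ECKO libraries with displaced rows and 9.12 in replicate 1; in L12YT-ECKO it was 10.72 and 11.23 in the 2 libraries with displaced rows and 8.52 and 9.27 in the other 2. With that sum as a covariate, an alternative added after seeing the data, 5 genes were called: Wwtr1, Cyr61, Apln, Fam101b and Crim1. Epithelial sums were 10.997 to 12.76 and 11.53 to 13.52 in L12-ECKO and L12YT-ECKO, and mesenchymal sums 14.29 to 15.11 and 14.07 to 15.04. 0 of 15 epithelial and 0 of 12 mesenchymal markers tested were called. Red cell and platelet sums were 14.36 to 16.47 in L12-ECKO and 15.08 to 16.94 in L12YT-ECKO. Of 8 such markers tested, 7 were higher in L12YT-ECKO and 0 were called.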

How the data were processed

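The authors deposited 1 table per library with a normalized log2 value per gene; the log2 scale, and the quantile normalization, were inferred from their ranges, and no counts are analysed here. Libraries were made with the Lexogen QuantSeq kit, per the labels' protocols. Bowtie2, edgeR and the mm10 genome are named, per the submitters' processing notes, with no version or role stated here. The deposited values were used as they stand. Genes were kept with a CPM of at least 1, computed from the values raised from the log2 scale, in at least 4 of 12 libraries. limma 3.58.1 in R 4.3.3 (statmod 1.5.0) was fitted to all 12 libraries with 1 mean per group and a robust prior variance following the mean level (9 residual degrees of freedom), tested on simulated data. Groups come from the sample titles.

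Members and gene lists (38 lists, 732 entries, 730 found) were chosen with earlier results of these data known, so no list was tested. The text names the 4 targeted genes, every called gene, the 10 higher and 10 lower genes next by p with a mean of at least 8 and separate groups, the 10 largest differences carried by L12-ECKO replicate 1, and up to 4 members per list; Rims2, Aplnr, Ankrd1, Cdh5, S100a8 and S100a9 were added after their values were seen. 2 genes that this rule names are not reported here. Coordinates are from the GENCODE annotation of mm10 and promoter windows from RefSeq. Alternatives covered the variance prior, the filter, a floor, centring, weights, covariates, the replicate block, batches and each library left out. No column of another sample was used.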

Additional observations from a re-analysis of the deposited data

Results flagged for a closer look

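In 60 groups of 4 libraries checked, 7 values stood apart from the other 3 of their group by Dixon's 95% criterion, which chance meets in about 1 of 20 groups. Wwtr1 was low in L12-ECKO replicate 4, at 10.11 against 11.49 to 11.57 in the others; this narrows the difference to L12YT-ECKO. Yap1 was low in L12YT-ECKO replicate 3, at 6.69 against 7.96 to 8.20, and Lats1 was listed at 0 in L12YT-ECKO replicate 2 against 7.11 to 7.90. Crim1 was high in L12YT-ECKO replicate 1, at 10.95 against 10.30 to 10.38. St6galnac4 was low in L12-ECKO replicate 4, at 8.76 against 9.63 to 9.74. In L12-ECKO replicate 1 Clic5 was high, at 9.60 against 8.81 to 8.92, and Filip1l was low, at 10.84 against 11.51 to 11.58; the difference of both is larger without that library, 1.65 and -1.30.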

How the results depend on the processing

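The count of 8 called genes was 3 without a trend in the variance prior (Rims2, Neurl2 and Chd3os, 0 of the 8). It was 5 from the 8 libraries alone (Wwtr1, Cyr61, Ctgf, Apln and Fam101b) and 21 with array weights. With sex as a covariate it was 5, namely Wwtr1, Yap1, Cyr61, Apln and Fam101b. It was 14 (2 of the 8) in the 7 libraries without displaced rows, which hold a single L12-ECKO library assumed to vary like the others. Limma called 0 in the 5 libraries with displaced rows, with 396 at an unadjusted p under 0.05. Leaving out each library in turn gave 4 to 9; 4 came from omitting L12YT-ECKO replicate 2 or WT replicate 2, and 5 from omitting L12YT-ECKO replicate 1, L12YT-ECKO replicate 3 or L12-ECKO replicate 3. Of 2 alternatives chosen after seeing the data, leaving out L12-ECKO replicates 1 and 3 together gave 0 (569 at an unadjusted p under 0.05) and the liver sum as a covariate gave 5; other CPM totals, also added later, gave 8. Whether replicate numbers pair the libraries cannot be told from these values. Deviations of same-numbered libraries correlated at 0.0583, 0.0302, 0.00576 and 0.0428. L12-ECKO replicates 1 and 2 were closest to their own number, and replicates 3 and 4 to another. Replicate 4 was closest to L12YT-ECKO replicate 3 of the same batch, at 0.154. The fit with the replicate block gave 6 calls, 5 of them among the 8. The 261 genes carried by L12-ECKO replicate 1 became 32 for differences of at least 2, where L12-ECKO replicates 2 to 4 carried 24, 243 and 13 and L12YT-ECKO replicates 1 to 4 carried 65, 14, 2 and 9. For differences of at least 1, L12-ECKO replicates 3 and 4 carried 846 and 172, and replicates 1, 3 and 4 of L12YT-ECKO 419, 119 and 150. Of 2675 values of the 96 named genes under other settings, 8 turned sign: Lats1 to -3.45 in the batch of 7, Scgb3a1 to 0.37, Cyfip2 to 0.31, Slc16a3 to 0.74 and Ly9 to 0.41 in the batch of 5, D3Ertd751e to -1.46 and Rad51c to -1.31 without L12-ECKO replicates 1 and 3, and Il1rn to 0.27 without L12-ECKO replicate 1, the highest of its leave-one-out range from -3.85. The causes were not tested. Depth is unknown, so values near 0 may be genes that were not sampled.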

Other observations

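Several gene groups outside the comparisons above were also measured. Of 20 glycolysis and hypoxia genes 15 were lower in L12YT-ECKO, with 0 called and a median of -0.29, which was -0.01 without L12-ECKO replicate 1. Adm, which encodes the vasodilator peptide adrenomedullin, was the member with the smallest p, with L12-ECKO values of 9.64, 5.28, 6.62 and 7.496 against 0, 6.62, 5.15 and 0. Of 21 MYC and ribosome biogenesis genes 2 were lower at an unadjusted p under 0.05, the polyamine enzyme gene Odc1 (-1.36) and the nucleolin gene Ncl (-0.55), with a median of -0.20. Of 20 sterol synthesis genes 1 was higher, Stard4 at 1.12, and the median was -0.07. Of 16 immediate-early genes 2 were higher, Jund at 1.07 and Ier2 at 0.79; the median of 0.10 was -0.58 within the batch of 7 and 0.62 within the batch of 5. Of 9 venous and lymphatic genes Lyve1 was lower and the venous factor gene Nr2f2 higher, at 1.14, and the median turned from -0.29 to 0.23 without L12-ECKO replicate 1.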
